A study of Mus musculus with 15 samples.

Results

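The genes of the oxidative phosphorylation chain that are encoded on the mitochondrial chromosome and in the nucleus were compared in mouse medial prefrontal cortex (mPFC). They were taken from a table of counts for 27179 Entrez identifiers as the 13 protein-coding genes of the mitochondrial chromosome, together with every nuclear protein-coding gene whose symbol starts with Nduf, Sdha to Sdhd, Uqcr, Cyc1, Cox4 to Cox8 or Atp5 and whose mean over the libraries was at least 1 CPM (counts after scaling for library size). Of 96 nuclear genes with such symbols 83 reached that level, which made 96 members with the 13 mitochondrial genes. The nuclear members were 35 subunits of complex I, 8 complex I assembly factors, 3 subunits of complex II, 8 of complex III, 14 genes of complex IV and 15 of complex V. All 83 nuclear and 11 of the 13 mitochondrial members, 94 genes, passed a filter on low counts and were tested among 16816 genes. The nearest gene outside the level was Cox6b2 (0.993 CPM), and the nearest inside were Cox7a1 (1.12 CPM), Cox4i2 (1.12 CPM), Ndufa4l2 (1.30 CPM) and Ndufa8 (1.34 CPM).

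The 15 libraries came from dissected mPFC of C57BL/6J mice, with or without treatment labelled ABX, a common short form for an antibiotic mixture. Tissue was taken at a stage labelled before or after fear extinction, in which a conditioned fear response wanes with training. Before extinction there were 3 non-ABX libraries (replicates 1, 3 and 4) and 4 ABX libraries, and after extinction 4 of each. The sources used here do not give the antibiotics, their dose, or the age and sex of the mice, nor whether a library was made from 1 animal. The p-values therefore measure only how far these libraries spread, which may be technical. One label speaks of sorted cells and another of dissected tissue. Markers of several cortical cell types were all present: summed levels ran from 6498 to 8878 CPM for 6 excitatory neuron genes, from 4829 to 7179 CPM for 6 astrocyte genes and from 1369 to 1981 CPM for 5 oligodendrocyte genes. Libraries held 44254906 to 57929503 counts. In bulk tissue, fewer cells of a type and less RNA per cell cannot be told apart.

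Complexes I to IV pass electrons from NADH and succinate to oxygen, all but complex II pump protons across the inner mitochondrial membrane, and complex V, the ATP synthase, uses the proton gradient to make ATP. Complexes I, III, IV and V are built from subunits of both genomes, and complex II from nuclear subunits alone, so that assembly needs products of both. The mitochondrial genes are transcribed together as long RNAs that are cut into single messages, whereas each nuclear gene has its own promoter. Neurons depend on this chain for most of their ATP.

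Of the 13 mitochondrial genes 7 carried nearly all of the mitochondrial counts, and the 6 others lay next to each other on the chromosome at almost no counts. In genome order, mt-Nd1, mt-Nd2 and mt-Co1 had means of 5226, 3437 and 5669 CPM per kilobase of transcript over the 15 libraries. The next 6 genes, mt-Co2, mt-Atp8, mt-Atp6, mt-Co3, mt-Nd3 and mt-Nd4l, had 1.18, 0.0331, 1.52, 0.524, 3.57 and 0.291 CPM per kilobase. The last 4, mt-Nd4, mt-Nd5, mt-Nd6 and mt-Cytb, had 2640, 2533, 2890 and 9004 CPM per kilobase. The 6 low genes encode 2 of the 3 catalytic-core subunits of cytochrome oxidase, both mitochondrial subunits of ATP synthase and a pair of complex I subunits. Their totals over 15 libraries were 605 counts for mt-Co2, 5 for mt-Atp8, 776 for mt-Atp6, 307 for mt-Co3, 926 for mt-Nd3 and 65 for mt-Nd4l. The step from mt-Co1 to mt-Co2 and from mt-Nd4l to mt-Nd4 was present in every library: mt-Co2 had 26 to 59 counts in each and mt-Nd4l 1 to 8.

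The low genes lie in a stretch of which the mouse nuclear genome holds a second copy. Annotated pseudogenes lie on chromosome 1 of the GRCm38 build in the same order on the reverse strand, over chr1:24611535-24616197, 4663 bases, and were compared with chrM:5328-11544 through GENCODE M21 transcripts. Over their full aligned length, mt-Co2 (681 bases, copy Gm28661), mt-Atp6 (678, Gm10925), mt-Co3 (783, Gm28437), mt-Nd3 (342, Gm28438) and mt-Nd4l (294, Gm10222) had 0 substitutions against their copies. The first 876 of 1378 bases of mt-Nd4 also matched their copy, Gm28439, with 0 substitutions. In mt-Co1 only the last 483 of 1545 bases aligned with the copy Gm29216, with the single substitution A1066T, counted from 1 at the first base of mt-Co1. In all 4137 aligned bases there was 1 substitution. The edge of the copy inside mt-Co1 is shown first, since only 1 part of this gene aligned with Gm29216. Bases 1054 to 1154 of mt-Co1 stand above the first 101 bases of Gm29216, with differing bases in capitals. Of the 6 differing bases 5 lie in the first 9, before the aligned part.
mt-Co1: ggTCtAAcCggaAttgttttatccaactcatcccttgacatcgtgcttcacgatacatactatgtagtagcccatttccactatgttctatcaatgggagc
Gm29216: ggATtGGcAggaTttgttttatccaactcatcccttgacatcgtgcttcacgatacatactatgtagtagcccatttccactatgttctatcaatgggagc
For a gene inside the copied stretch, bases 292 to 392 of mt-Co2 are given as an example of a run in which no letter tells the genomes apart, and so has no capitals.
mt-Co2 and Gm28661: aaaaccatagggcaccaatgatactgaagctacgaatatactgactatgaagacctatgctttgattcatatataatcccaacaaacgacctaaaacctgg

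Counts and shared sequence were then set side by side. Of the 100-base windows of each transcript, 97.6% to 99.8% of those of mt-Co2, mt-Atp6, mt-Co3, mt-Nd3 and mt-Nd4l occurred letter for letter in a transcript of another gene. The share was 30.8% in mt-Co1, 60.8% in mt-Nd4, 3.20% in mt-Nd2 and 0% in mt-Nd1, mt-Nd5, mt-Nd6 and mt-Cytb. In mt-Atp8, which lies between mt-Co2 and mt-Atp6 and overlaps the start of mt-Atp6, it was also 0%. Windows were compared with annotated transcripts only, and genes that overlap the locus of the gene itself were left out. The bases between the copies of these neighbours, Gm10925 (up to chr1:24614651) and Gm28661 (from chr1:24614885), were not compared. The 0% therefore does not show that mt-Atp8 lacks a nuclear copy. Per kilobase of bases outside the copy, mt-Co1 had 8248 CPM and mt-Nd4 7246 CPM, if every counted read lay outside it. Per kilobase of the whole transcript they had 5669 and 2640 CPM. Both pairs of values lie within the range of the 5 high genes that have no annotated copy on chromosome 1 (2533 to 9004 CPM per kilobase). The range therefore cannot tell whether reads in the copied part were counted. Of the 50-base windows of mt-Co1, 51.1% were shared with 3 other genes, and 28.7% with Gm29216 alone. At this length its bases outside the copy are therefore in part shared with other transcripts. The 50-base share was 8.19% in mt-Nd2, 7.61% in mt-Nd5 and 0% in mt-Nd1, mt-Nd6 and mt-Cytb. The part that shared sequence plays in the low counts was not tested. The levels of the 6 genes are read here as the counts listed for them, and comparisons of the genomes rest mainly on mt-Nd1, mt-Nd2, mt-Co1, mt-Nd4, mt-Nd5, mt-Nd6 and mt-Cytb. mt-Nd6 lies on the other strand from its neighbours, and the library kit does not keep strand.

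**Figure D1:**
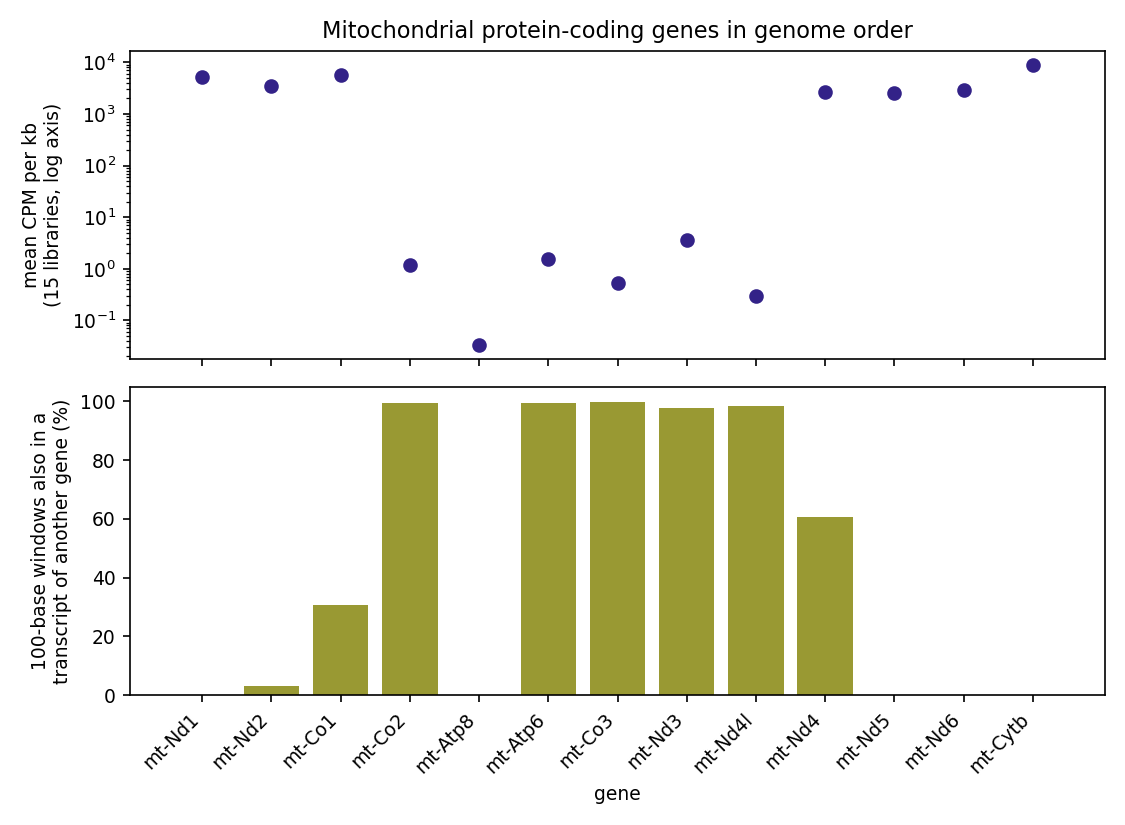
The 13 mitochondrial protein-coding genes in genome order; the upper panel gives the mean CPM per kilobase over 15 libraries on a log axis and the lower panel the percentage of 100-base windows of the transcript that also occur in a transcript of another gene that does not overlap it. The 6 neighbouring genes from mt-Co2 to mt-Nd4l lie between 0.0331 and 3.57 CPM per kilobase, and the other 7 between 2533 and 9004.

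Nuclear members were far below the 7 high mitochondrial genes per kilobase of their longest protein-coding transcript. The highest were Atp5b and Atp5a1, the catalytic beta and the alpha subunit of the F1 head of ATP synthase, at 633 and 341 CPM per kilobase, and Cox4i1, the ubiquitous subunit 4 of cytochrome oxidase, at 395. Medians were 48.7 CPM per kilobase in complex I, 90.4 in complex II, 92.2 in complex III, 121 in complex IV and 106 in complex V, and 14.2 in the assembly factors of complex I. In complex I the accessory subunit Ndufb9 was the highest (184). In complex II the highest were the flavoprotein Sdha (176) and the iron-sulfur subunit Sdhb (90.4), and in complex III they were the hinge protein Uqcrh (226) and the core protein Uqcrc2 (129). The range within a complex was wide with single subunits at very low levels: Ndufab1, the acyl carrier subunit of complex I, had 0.640 CPM per kilobase, and Atp5g1, 1 of the genes for the c ring of ATP synthase, had 0.631, while Atp5g3, which encodes the same mature c subunit, had 199. Of the Atp5g1 transcript 6.22% of 100-base windows, and of the Ndufab1 transcript 9.50%, occurred in another gene's transcript. A longer annotated transcript also lowers a value per kilobase.

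Among the nuclear genes left out for a mean under 1 CPM were common subunits. Sdhd, an anchor of complex II, had a mean of 0.0294 CPM, Uqcr11 0.00258, Cox7c 0.333, Cox7a2 0.391, Ndufa6 0.354, Atp5l 0.331 and Atp5g2 0.449. Shared 100-base windows made up 61.3% of Atp5l, 19.7% of Cox7c and 4.28% of Atp5g2, but 0% of Sdhd, Uqcr11, Cox7a2 and Ndufa6. Of 50-base windows 10.9% were shared in Uqcr11, and 0% in Sdhd, Cox7a2 and Ndufa6. Low listed counts therefore occurred with and without a window shared with an annotated transcript of another locus among the nuclear genes. Genes that overlap the locus of the gene itself were left out, so 0% does not exclude sequence shared with them. Why they were low was not tested. The other 6 genes left out were Cox6b2, Cox7b2, Cox8b, Cox8c, Ndufb4b and Ndufb4c, at 0 to 0.993 CPM. Cox6b2, Cox7b2 and Cox8c are known from testis and Cox8b from muscle.

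The promoters of the nuclear members were searched for motifs that textbooks tie to respiratory genes, in the 250 bases before the start of transcription. RefSeq sequences of GRCm38.p6 were found for 66 of the 83 members and for 27025 genes in all, and both strands were read. The core of the NRF1 site, GCATGCGC, was in 6 of 66 member promoters (9.09%) and in 2.56% of all. The ETS core bound by NRF2/GABP, CCGGAAG, was in 11 (16.7%) and in 7.83% of all. The YY1 core AAGATGGCG was in 1 (1.52%, 0.710% of all) and the ERR site TCAAGGTCA in 1 (1.52%, 0.422% of all). The hypoxia element ACGTG, which is also part of the E-box CACGTG, was in 11 (16.7%, 18.5% of all). Cox6a1, the ubiquitous subunit 6a1 of cytochrome oxidase, was the single member with both an NRF1 and an ETS core, and its promoter is printed 5′ to 3′ with these cores and the overlapping palindrome in capitals (chr5:115348959-115349208, minus strand). These matches describe the letters and are no evidence of binding. The 27025 genes were neither limited to expressed genes nor matched for the GC content of promoters. The shares therefore cannot tell whether a motif is particular to respiratory genes.
Cox6a1 promoter: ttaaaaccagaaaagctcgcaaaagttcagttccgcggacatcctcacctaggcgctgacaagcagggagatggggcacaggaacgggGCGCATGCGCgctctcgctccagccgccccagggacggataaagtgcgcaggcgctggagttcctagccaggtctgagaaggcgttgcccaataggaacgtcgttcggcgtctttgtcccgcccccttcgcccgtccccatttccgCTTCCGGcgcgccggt

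Levels of the 2 genomes overlapped between the groups. The 13 mitochondrial genes took 3.90%, 2.66% and 3.93% of all gene counts in pre-extinction non-ABX replicates 1, 3 and 4, and 5.49%, 3.35%, 4.47% and 3.44% in pre-extinction ABX replicates 1 to 4. After extinction they took 4.17%, 2.87%, 3.33% and 3.35% in non-ABX and 4.50%, 3.66%, 3.05% and 3.99% in ABX libraries. The ranges of all groups overlapped. Group means were 3.50% ± 0.726 (SD, n = 3), 4.19% ± 1.01 (SD, n = 4), 3.43% ± 0.544 (SD, n = 4) and 3.80% ± 0.608 (SD, n = 4) in the same order, and each difference between them was smaller than the SD of at least 1 of the groups compared. The 83 nuclear genes took 0.755% to 0.923% of counts, with group means of 0.788% ± 0.0231, 0.817% ± 0.0110, 0.799% ± 0.0449 and 0.828% ± 0.0630 (SD). There were 3.26 to 6.73 mitochondrial counts per nuclear one.

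**Figure D2:**
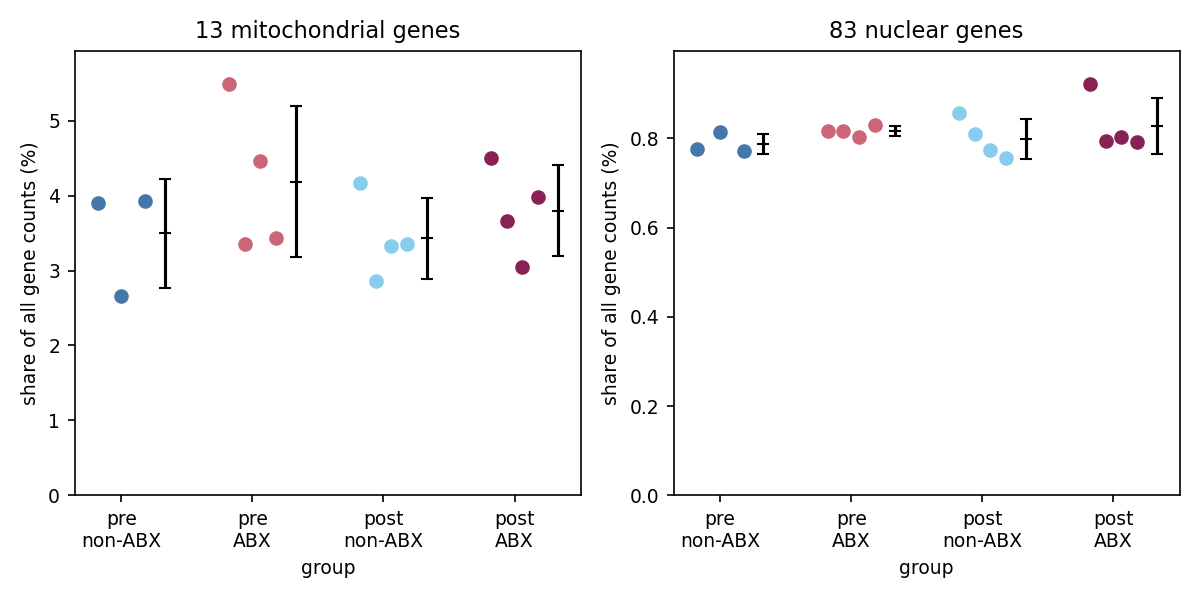
Share of all gene counts taken by the 13 mitochondrial (left) and the 83 nuclear (right) genes, in percent, by group; each point is a library, and the bar gives mean and SD. Mitochondrial shares run from 2.66% to 5.49% and overlap between all groups, and nuclear shares run from 0.755% to 0.923%.

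The 7 high mitochondrial genes were high and low in largely the same libraries. In pre-extinction ABX replicate 1 all 7 were the highest of their group, and in pre-extinction non-ABX replicate 3, post-extinction non-ABX replicate 2 and post-extinction ABX replicate 3 all 7 were the lowest. mt-Cytb (Entrez 17711, chrM:14145-15288), the cytochrome b of complex III, had 10598, 7717 and 10767 CPM in pre-extinction non-ABX libraries and 14413, 9270, 12051 and 9304 in pre-extinction ABX ones. After extinction it had 11525, 8189, 9322 and 9270 CPM without ABX and 12409, 10335, 8554 and 10780 with it. Its groups overlapped at both stages, since a low and a high library stood on each side.

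mt-Co1 (Entrez 17708, chrM:5328-6872), the catalytic subunit of cytochrome oxidase, had 9480, 6251 and 9810 CPM before extinction without ABX and 12372, 7560, 10912 and 7855 with it. After extinction it had 10046, 6729, 7867 and 8124 CPM without ABX and 10065, 8257, 6726 and 9329 with it. The same libraries were high and low as for mt-Cytb. mt-Nd6 (Entrez 17722, chrM:13552-14070), a membrane subunit of complex I, had the largest ABX difference before extinction of the 7: it was at 1520, 1057 and 1523 CPM without ABX and at 2269, 1334, 1967 and 1341 with it. The within-group coefficient of variation was 17.7% to 21.7% for the 7 genes (median 20.4%). For the 83 nuclear genes it was 3.22% to 71.5% (median 10.6%), and for the 71 of these with at least 10 CPM 3.22% to 31.2% (median 9.79%). The highest library was 1.87 to 2.15 times the lowest for the 7 genes. For the nuclear genes this ratio had a median of 1.45 and ran from 1.14 (Atp5a1, the steadiest) to 12.7. Among those with at least 10 CPM it reached 3.58, so that some nuclear genes varied more than the 7.

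No mitochondrial gene passed the test between ABX and non-ABX libraries before extinction. The log2 fold change was positive for 10 of 11 tested mitochondrial genes, with a median of 0.24, and for 43 of 83 nuclear genes, with a median of 0.01; over all 16816 genes the median was 0.01. In edgeR's quasi-likelihood test with Benjamini-Hochberg adjustment over all genes, 0 of 94 members were called in this comparison, against a background of 0.00595% of all genes. At an unadjusted p under 0.05 there were 0 of 11 mitochondrial and 10 of 83 nuclear members (12%), against 16% of all genes. DESeq2 and limma voom with sample quality weights also called 0 members here. mt-Nd6 had 0.34 (SE 0.19, edgeR adjusted p = 0.347), mt-Nd1 0.31 (SE 0.20, edgeR adjusted p = 0.392), mt-Cytb 0.22 (SE 0.17, edgeR adjusted p = 0.474) and mt-Co1 0.18 (SE 0.20, edgeR adjusted p = 0.590). Without pre-extinction non-ABX replicate 3 these were 0.18 for mt-Nd6, 0.16 for mt-Nd1, 0.07 for mt-Cytb and 0.00 for mt-Co1, and without pre-extinction ABX replicate 1 they were 0.18, 0.15, 0.08 and 0.05. Among the low genes, mt-Nd3 had 0.49 (SE 0.34, edgeR adjusted p = 0.422) and mt-Co3 -0.08 (SE 0.28, edgeR adjusted p = 0.880).

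The difference between the genomes, taken as the median log2 fold change of the mitochondrial minus that of the nuclear members, was 0.23 before extinction. The SD of the same score between single libraries of a group was 0.27, which is not the error of a difference between group means. No test was made of this difference. The value was 0.02 without pre-extinction non-ABX replicate 3 and 0.08 without pre-extinction ABX replicate 1, and 0.33 without pre-extinction non-ABX replicate 4. Under voom with sample quality weights its sign turned, to -0.04. After extinction it was 0.07, with 9 of 11 mitochondrial genes (median 0.10) and 51 of 83 nuclear genes (median 0.03) positive and a median of 0.01 over all genes. There too 0 of 94 members were called by edgeR, against 0.0178% of all genes, and 0 by DESeq2 and voom. The unadjusted p was under 0.05 in 0 of 11 mitochondrial and 8 of 83 nuclear members (9.64%), against 13.3% of all genes. mt-Nd6 had 0.17 (SE 0.17, edgeR adjusted p = 0.634) and mt-Cytb 0.14 (SE 0.16, edgeR adjusted p = 0.674). With any 1 library left out they lay between 0.09 and 0.26 and between 0.05 and 0.24, the lowest values being those without post-extinction ABX replicate 1. The comparisons before and after extinction share no library.

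The GC content of transcripts was set beside these values. The 13 mitochondrial genes have 31.9% to 41.1% G and C (median 37.1%), and the nuclear members 39.5% to 60.4% (median 50.5%). A GC tilt was computed for each library as the mean log2 deviation from the average library of tested genes with at most 45.5% GC minus that of genes with at least 55.0%. It was 0.65 in pre-extinction ABX replicate 1, which had the highest mitochondrial share, and 0.51 in pre-extinction ABX replicate 3, and it was -0.50 in pre-extinction non-ABX replicate 3, which had the lowest share, and -0.45 in post-extinction non-ABX replicate 2. Other libraries did not follow this order. Post-extinction non-ABX replicate 1 had a tilt of -0.32 with the highest mitochondrial share of its group, 4.17%, post-extinction ABX replicate 4 had -0.19 with 3.99%, and pre-extinction ABX replicate 2 had 0.20 with 3.35%. Group means of the tilt were -0.06 ± 0.38 and 0.32 ± 0.32 before extinction without and with ABX, and -0.27 ± 0.16 and -0.01 ± 0.21 after it (SD). With a GC trend removed from each library, the difference between the genomes was 0.01 before and -0.01 after extinction, and the mitochondrial medians were 0.05 and 0.02.

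**Figure D3:**
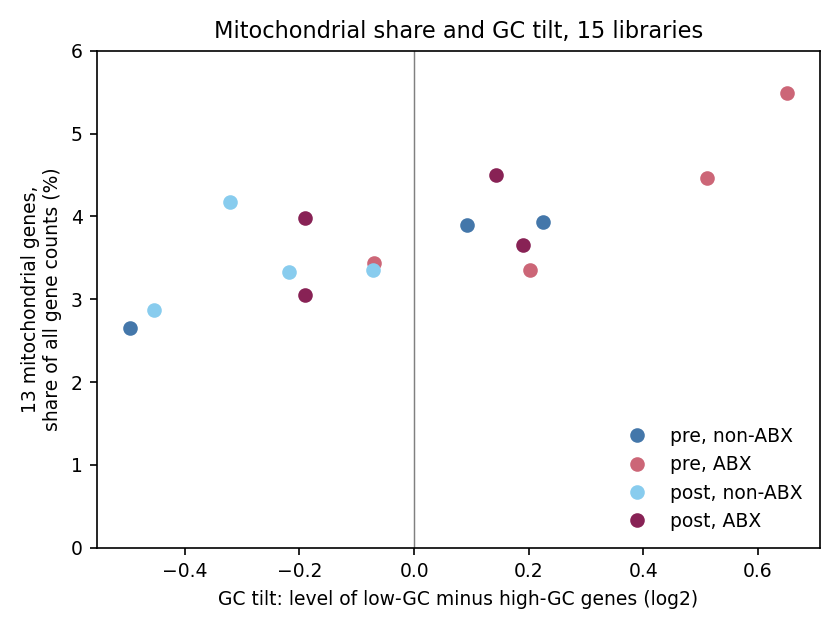
Share of counts of the 13 mitochondrial genes (vertical axis, percent) against the GC tilt (horizontal axis, log2 level of low-GC minus high-GC genes) in 15 libraries, coloured by group. The library at 5.49% has the largest tilt, 0.65, and the library at 2.66% the lowest, -0.50, while the library at 4.17% has a tilt of -0.32.

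Nuclear members split by GC content in the same way as all genes did. Before extinction, 32 of the 42 nuclear members at or below their median GC had a positive log2 fold change for ABX (median 0.10), and 30 of the 41 above it a negative one (median -0.14). Over all tested genes on the same sides of that GC content the medians were 0.10 and -0.15. After extinction 36 of 42 and 26 of 41 members went the same ways, with medians of 0.08 and -0.09, and all genes had 0.07 and -0.09. In post- against pre-extinction ABX libraries the signs were the other way round: 29 of 42 low-GC members were negative (median -0.05) and 34 of 41 high-GC members positive (median 0.14), beside -0.10 and 0.13 over all genes. With the trend removed, the medians of both sides lay between 0.00 and 0.04 in size in these comparisons. What sets the tilt was not tested.

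By complex, the nuclear medians before extinction were -0.01 for complex I, -0.02 for complex II, -0.03 for complex III, 0.03 for complex IV and 0.04 for complex V, and 0.04 for the complex I assembly factors. After extinction they were 0.03, 0.03, -0.05, 0.05, 0.04 and 0.02. In complex V the 10 stalk and membrane subunits were positive in 9 of 10 genes at each stage (medians 0.05 and 0.07), with 0 called, and the 5 subunits of the F1 head in 2 of 5 (medians -0.02 and -0.02). The core subunits of complex I, which hold its flavin and iron-sulfur centres, had medians of -0.02 and -0.04 (7 genes) and its accessory subunits -0.01 and 0.03 (28 genes). Each of these medians lies within 0.07 of 0. Summed levels of complex V before extinction did not overlap: they were 2958, 3030 and 3014 CPM without ABX and 3045, 3089, 3117 and 3048 CPM with it, a sum for which no test was made. Atp5b alone, which also did not overlap, gave 1203, 1188 and 1220 CPM of these sums without and 1233, 1253, 1229 and 1242 CPM with ABX. After extinction the sums of complex V overlapped, at 2881 to 3146 CPM without and 2863 to 3353 CPM with ABX. The sums of complexes I to IV overlapped between ABX and non-ABX libraries at both stages, for example 1984 to 2307 CPM without and 2018 to 2152 CPM with ABX for complex I before extinction.

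For a few members the libraries of ABX and non-ABX groups did not overlap. Before extinction 8 of 83 nuclear members (9.64%) were higher in every ABX than in every non-ABX library, against 3.62% of all genes, and 1 (1.20%) was lower, against 3.14%. The 8 were Atp5b, Atp5h, Atp5j, Ndufb2, Ndufb4, Cox5a, Cox7a2l and Uqcrh, and the 1 was Ndufa4l2. Atp5j, Ndufb2, Ndufb4 and Cox7a2l, and for the later stage Ndufaf7 and Atp5d, are named after their values were seen. After extinction 1 member (1.20%), the assembly factor Ndufaf7, was higher without overlap, against 4.74%, and 4 (4.82%) were lower, against 6.36%. Those 4 were Ndufa4l2, Ndufa8, Cox6a2 and Atp5d. No mitochondrial gene was without overlap at either stage.

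**Figure D4:**
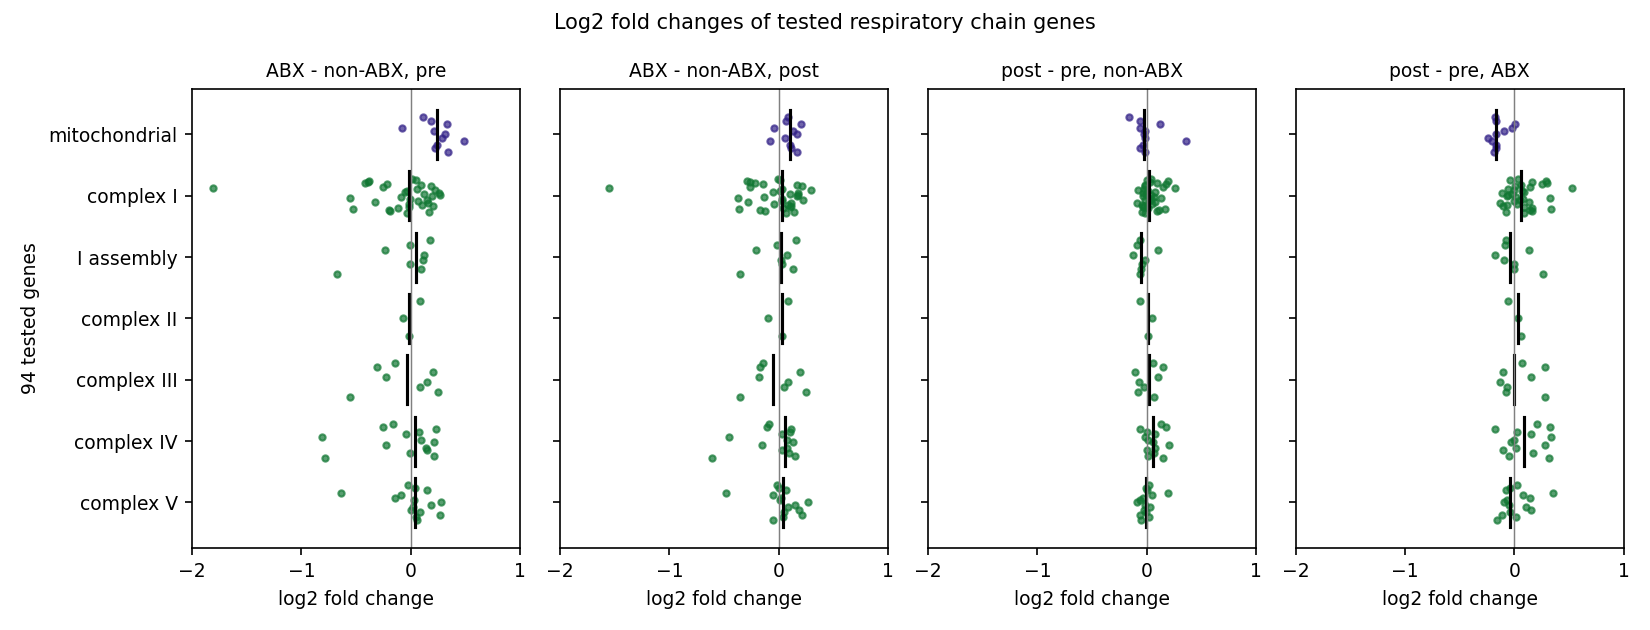
Log2 fold changes of the 94 tested genes in 4 comparisons, by genome and complex; each point is a gene and the black line the median of its row. Mitochondrial medians are 0.24, 0.10, -0.02 and -0.17 from left to right, nuclear rows centre near 0, and the point farthest left in the first 2 panels is Ndufa8.

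Ndufa4l2 had the smallest p of all members at both stages. It encodes a relative of the cytochrome oxidase subunit Ndufa4, is known as a hypoxia-inducible gene and in brain is used as a pericyte marker. Ndufa4l2 (Entrez 407790, chr10:127509274-127517154) had 1.40, 1.84 and 1.40 CPM in pre-extinction non-ABX libraries and 0.841, 0.925, 0.598 and 1.21 in pre-extinction ABX ones, and after extinction 2.02, 1.93, 1.56 and 1.32 without and 1.17, 0.844, 1.15 and 1.31 with ABX. Every ABX library was below every non-ABX library of its stage, the closest pair after extinction being 1.31 and 1.32 CPM. The log2 fold changes were -0.78 (SE 0.22, edgeR adjusted p = 0.311) and -0.61 (SE 0.20, edgeR adjusted p = 0.268), neither of which passed, and -0.47 and -0.39 with the GC trend removed. Ndufa4 itself (Entrez 17992, chr6:11900372-11907450), at 284 CPM per kilobase against 1.39 for Ndufa4l2, had 0.21 (SE 0.11, edgeR adjusted p = 0.341) and 0.15 (SE 0.10, edgeR adjusted p = 0.497). Most markers of vessel cells went the same way as Ndufa4l2: 8 of 9 pericyte and smooth muscle markers had a negative log2 fold change at each stage (medians -0.16 and -0.34). At each stage 0 of 9 were called, against 0.00595% and 0.0178% of all genes. The unadjusted edgeR p was under 0.05 in 4 and 6 of the 9, against 16% and 13.3% of all genes. The summed level of these markers was 172 to 199 CPM without and 137 to 184 CPM with ABX before extinction, and 177 to 204 and 137 to 170 after it. This list pools both cell types, and its exception at each stage was Kcnj8. Kcnj8 had 2.98 to 3.97 CPM without and 3.14 to 4.23 CPM with ABX before extinction, and 2.35 to 4.12 and 3.34 to 4.28 after it. All 8 endothelial markers were negative at both stages (medians -0.34 and -0.43), with 0 of 8 called against the same shares of all genes. The unadjusted edgeR p was under 0.05 in 6 of 8 before and 7 of 8 after extinction, against 16% and 13.3% of all genes. The 8 summed to 222 to 246 CPM without and 153 to 210 CPM with ABX before and to 216 to 228 and 153 to 215 CPM after extinction. The part of these cells in the Ndufa4l2 values was not tested.

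Cox6a2 is the isoform of cytochrome oxidase subunit 6a known from heart and skeletal muscle, and in cortex from parvalbumin interneurons. Cox6a2 (Entrez 12862, chr7:128205435-128206366) had 3.38, 5.57 and 2.28 CPM before extinction without ABX and 1.59, 2.27, 2.11 and 2.56 with it, and 3.66, 3.88, 4.00 and 3.27 after extinction without and 3.11, 1.93, 2.78 and 3.00 with ABX. The groups overlapped before extinction and not after it. The log2 fold changes were -0.81 (SE 0.24, edgeR adjusted p = 0.311) and -0.45 (SE 0.22, edgeR adjusted p = 0.382). The first was -0.41 without pre-extinction non-ABX replicate 3, the library at 5.57 CPM. Its partner Cox6a1 (Entrez 12861), at 237 CPM per kilobase against 4.45, had -0.05 (SE 0.14, edgeR adjusted p = 0.856) and 0.03 (SE 0.13, edgeR adjusted p = 0.920). Of 7 parvalbumin interneuron markers 5 were negative at each stage (medians -0.05 and -0.03), with 0 of 7 called, against 0.00595% and 0.0178% of all genes. Summed levels of the 7 were 523 to 557 CPM without and 510 to 540 CPM with ABX before extinction, and 530 to 558 and 486 to 517 after it. Pvalb itself had 41.6, 48.1 and 48.5 CPM without and 54.2, 43.7, 50.1 and 49.7 CPM with ABX before extinction. After extinction Pvalb had 58.0, 51.8, 41.9 and 42.8 CPM without and 66.7, 36.9, 42.2 and 42.0 CPM with ABX. Its groups overlapped at both stages. The part of these cells was not tested.

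Ndufa8, an accessory subunit of complex I that is imported into the intermembrane space, showed the largest differences of the members at a low level. Ndufa8 (Entrez 68375, chr2:36036324-36049338) had 0.845, 4.23 and 0.679 CPM before extinction without ABX and 0.332, 0.508, 0.512 and 0.806 with it. After extinction it had 2.57, 3.08, 1.75 and 1.74 CPM without and 0.362, 0.370, 1.09 and 1.29 with ABX. Before extinction the difference rests on pre-extinction non-ABX replicate 3, and after extinction the groups did not overlap. The log2 fold changes were -1.81 (SE 0.58, edgeR adjusted p = 0.311) and -1.55 (SE 0.52, edgeR adjusted p = 0.273). The first was -0.50 without that library, and the second between -1.90 and -1.32 with any 1 library left out. The highest library was 12.7 times the lowest, the widest range of the nuclear members.

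The same library, pre-extinction non-ABX replicate 3, was the highest of the 15 for other members with an unadjusted p under 0.05. Atp5d, the delta subunit of the F1 head, had 27.4 CPM there and 12 and 11.1 CPM in the other 2 libraries of the group, against 7.68, 11.8, 9.58 and 14.1 with ABX (log2 fold change -0.64, SE 0.26, edgeR adjusted p = 0.311, and -0.27 with the GC trend removed). Ndufaf8, a complex I assembly factor, had 4.76 CPM there and 1.98 and 2.22 in the others, against 1.37, 1.85, 2.05 and 2.20 with ABX (-0.67, SE 0.26, edgeR adjusted p = 0.311, and -0.17 without that library). Uqcrq, a subunit of complex III, had 53.0 CPM there and 23.4 and 20.3 in the others, against 18.8, 22.2, 19.2 and 27.2 with ABX (-0.56, SE 0.26, edgeR adjusted p = 0.312). In this library 50 of the 83 nuclear members were the highest of their group and 25 the lowest, while all 7 high mitochondrial genes were the lowest.

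Atp5h, the d subunit of the peripheral stalk of ATP synthase, was the positive difference with the smallest p at both stages. Atp5h (Entrez 71679, chr11:115415691-115419919) had 47.0, 46.2 and 48.5 CPM before extinction without ABX and 64.3, 56.3, 54.9 and 53.2 with it, and 47.9, 47.4, 39.7 and 43.2 after extinction without and 64.0, 52.4, 50.6 and 47.5 with ABX. All 4 ABX libraries were above the others before extinction, and after it 3 of 4 were. The log2 fold changes were 0.27 (SE 0.10, edgeR adjusted p = 0.311) and 0.27 (SE 0.09, edgeR adjusted p = 0.274), and 0.26 and 0.25 with the GC trend removed. Of its 100-base windows 29.5% also occur in the pseudogene Gm10250 on chromosome 15, so its value is uncertain where reads of both were split. Other positive values after extinction were those of Ndufb9 (0.22, SE 0.08, edgeR adjusted p = 0.309), Ndufa3, an accessory subunit of complex I (0.17, SE 0.07, edgeR adjusted p = 0.336), and Uqcrh (0.25, SE 0.12, edgeR adjusted p = 0.365). Cox5a, which holds a regulatory site of cytochrome oxidase, had 0.23 before extinction (SE 0.10, edgeR adjusted p = 0.312).

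**Figure D5:**
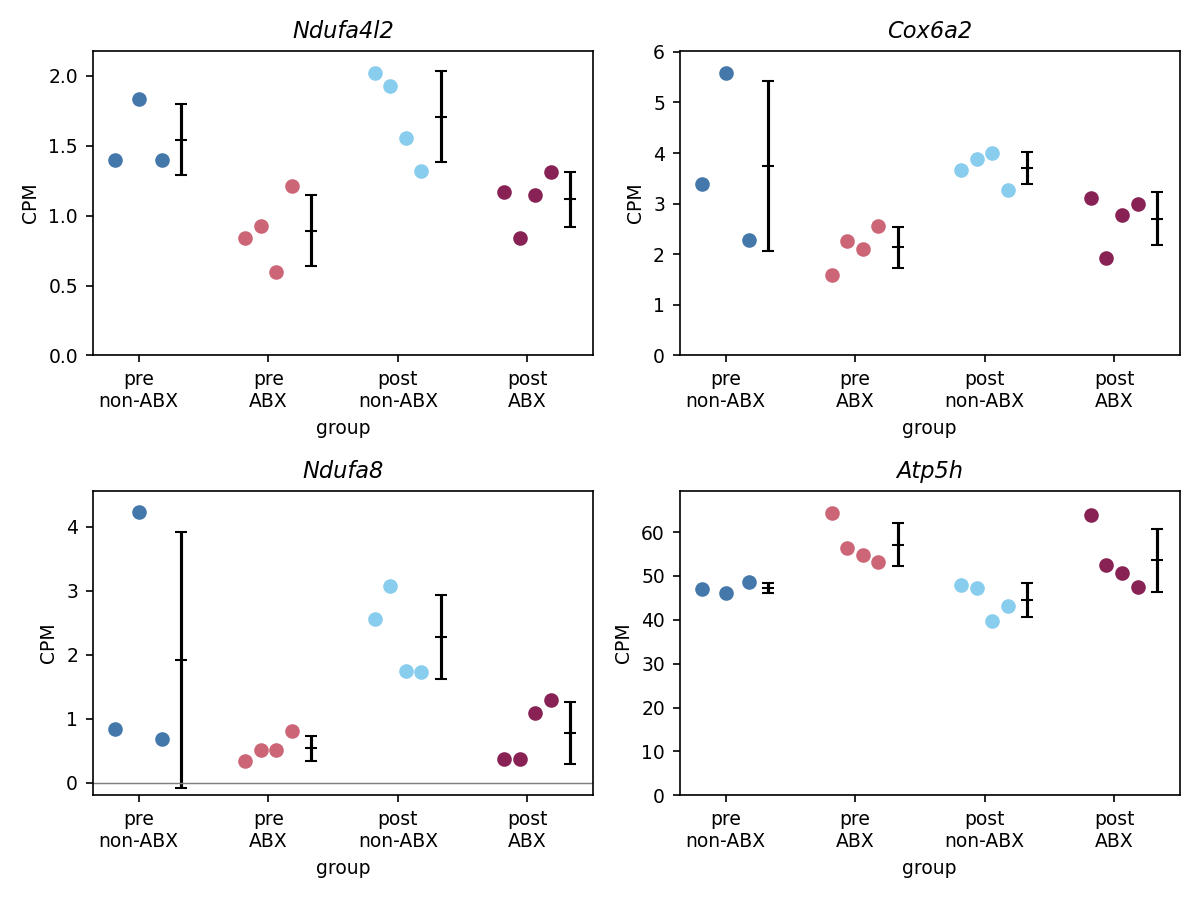
CPM of Ndufa4l2, Cox6a2, Ndufa8 and Atp5h by group; each point is a library, and the bar gives mean and SD. Ndufa4l2 is lower in every ABX than in every non-ABX library of its stage, Atp5h is higher in every ABX library before extinction, and the wide bar of Ndufa8 before extinction comes from a library at 4.23 CPM.

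The remaining tissue-restricted isoforms were near 1 CPM in every group. Cox4i2, the isoform of subunit 4 known from lung and from oxygen-sensing cells, had 0.704 to 1.51 CPM over the 15 libraries against 229 to 371 CPM for Cox4i1, and the 2 had -0.25 (SE 0.19) and -0.16 (SE 0.13) for ABX before extinction, with edgeR adjusted p = 0.451 and 0.477. Cox7a1, the muscle isoform of subunit 7a, had 0.790 to 1.45 CPM, with -0.23 (SE 0.18, edgeR adjusted p = 0.472). Cox8a and Cox6b1, the ubiquitous forms whose tissue partners fell under 1 CPM, had -0.01 (SE 0.10) and 0.09 (SE 0.08), with edgeR adjusted p = 0.960 and 0.499. The catalytic subunit Atp5b ran from 1124 to 1335 CPM, and had 0.04 (SE 0.06) before and 0.00 (SE 0.06) after extinction, with edgeR adjusted p = 0.711 and 0.977.

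No member was called by edgeR between the stages. In non-ABX libraries the post- against pre-extinction median was -0.02 for the 11 mitochondrial and 0.01 for the 83 nuclear genes, beside 0.00 in size over all genes. In ABX libraries it was -0.17 and 0.03, beside 0.01, with 10 of 11 mitochondrial genes negative; mt-Nd2, a core membrane subunit of complex I, had -0.24 (SE 0.17, edgeR adjusted p = 0.428). In edgeR 0 of 94 members were called in either comparison, against 0% and 0.0951% of all genes, and 0 had an unadjusted p under 0.05, against 4.94% and 16.6%. No nuclear or mitochondrial member was without overlap, against 2.33% (higher) and 3.57% (lower) of all genes in non-ABX and 2.69% and 2.78% in ABX libraries. DESeq2 called 0 members as well, and voom with sample quality weights called 0 in ABX libraries. In non-ABX libraries voom called 13 of 94 members higher after extinction, among them Ndufa8, Atp5d, Ndufs7, Uqcrq and Cox4i1, and 0 lower, against 11.5% of all genes called higher and 7.48% called lower. In ABX libraries the nuclear genes with the smallest p were Cox4i2 (0.32, SE 0.17, edgeR adjusted p = 0.330), Cox8a (0.17, SE 0.09, edgeR adjusted p = 0.337) and Cox5a (-0.18, SE 0.10, edgeR adjusted p = 0.338).

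The mitochondrial minus nuclear median was -0.03 across the stages without ABX and -0.20 with it. The first was 0.11 with the GC trend removed and -0.20 under voom. The second was -0.05 in ABX libraries without pre-extinction ABX replicate 1 and 0.05 with the GC trend removed. For the interaction, the ABX difference after minus that before extinction, it was -0.13, and it was 0.06 without pre-extinction non-ABX replicate 3 and 0.01 without pre-extinction ABX replicate 1, and 0.06 under voom. No member was called for the interaction in edgeR, against 0% of all genes, and 0 had an unadjusted p under 0.05, against 2.06%; DESeq2 and voom also called 0. Atp5k had the smallest p of the nuclear members (0.18, SE 0.13).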

How the data were processed

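Raw gene counts, unnormalized and keyed by Entrez identifier, were deposited by the authors with 1 column per library. The submitters' processing notes name STAR 2.3.0, CASAVA 1.8.2 and the build mm10 without their roles. How reads were counted, and on which annotation, was not stated in the labels or file. Symbols came from RefSeq (25275 of 27179 identifiers, 99.7% of counts), and lengths, GC content and shared 50- and 100-base windows from GENCODE M21. Groups followed the labels. Counts were fitted in R 4.3.3 with edgeR 4.0.16: filterByExpr (minimum count 10, minimum total 15), TMM scaling, 4 group means over 15 libraries, quasi-likelihood tests, Benjamini-Hochberg adjustment over 16816 genes and a threshold of 0.05. The biological coefficient of variation was 0.112, so that for most members the spread between libraries and not counting error limited precision. SE is the fold change divided by the root of F. Printed levels are TMM-scaled CPM. In simulated counts for the ABX comparison before extinction, with a biological coefficient of variation of 0.1, 200 of 200 genes changed 2-fold among 16816 were recovered. Smaller folds and wider spreads were not simulated. The within-group coefficient of variation was 17.7% to 21.7% for the 7 high mitochondrial genes and up to 71.5% for nuclear members. The simulation therefore does not show that a 2-fold change in such members would be called. Alternatives were DESeq2 1.42.0, limma 3.58.1 voom with quality weights, other scalings and filters, a replicate block, a GC spline (5 degrees of freedom, 96.5% of genes), the compared groups alone and each library left out. The members, the 15 lists of related genes, the mitochondrial rRNAs and the marker lists were chosen with earlier results of these data known. Named genes are the 13 mitochondrial genes, the 5 nuclear members of smallest p per comparison, the isoform pairs and the 2 highest and 1 lowest members per kilobase in each complex; others were named after their values were seen. Some genes that this rule selects are not reported here.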

Additional observations from a re-analysis of the deposited data

Results flagged for a closer look

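In groups of 4 libraries, a library far from the other 3 was looked for in 141 sets of values, and 6 were found, of which chance gives about 1 in 20 of the groups looked at. Post-extinction ABX replicate 3 had 3 of them: mt-Co2 at 0.524 CPM (others 0.979 to 1.01), mt-Atp8 at 0.0201 CPM (others 0) and Ndufab1 at 1.71 CPM (others 2.56 to 2.72). Post-extinction non-ABX replicate 2 had mt-Atp8 at 0.0378 CPM (others 0), which like the value before it stands for 1 or 2 counts. Atp5a1 was at 831.1 CPM in pre-extinction ABX replicate 1 (others 912.4 to 928.4), the library with the highest mitochondrial share and GC tilt. The nuclear members took 0.923% of counts in post-extinction ABX replicate 1 (others 0.792% to 0.804%), where 58 of the 83 were the highest of their group and where summed blood markers (8.47 CPM) and choroid plexus markers (15.8 CPM) were also the highest of the 15 libraries. The part of these tissues was not tested.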

How the results depend on the processing

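Called members between the stages in non-ABX libraries numbered 0 in edgeR and 13 under voom with sample quality weights, all of them higher after extinction, where voom called 11.5% of all genes higher and 7.48% lower, and the cause was not tested. This was the single one of 179 alternatives to a comparison's value or count that moved it beyond the spread between libraries or away from 0. For the mitochondrial minus nuclear median that spread was 0.27, larger in size than each such difference in edgeR. Those differences could therefore vanish or change sign without being counted as moved, and the count is no measure of their stability. For 39 single-gene results, 661 of 676 alternative values had the same sign and the same side of the threshold, 14 changed sign without a call, and 1 (Cox4i1 between stages without ABX, 0.25 under voom) was called. With any 1 library left out, the mitochondrial minus nuclear median lay between 0.02 and 0.33 before and between 0.00 and 0.15 after extinction, and between -0.22 and 0.08 across stages without and between -0.29 and -0.05 with ABX. Under voom it was -0.04 before extinction, and with the 7 mitochondrial genes above 1000 CPM, an alternative chosen after seeing the data, it was 0.23. With a replicate block it was 0.29 before and 0.09 after extinction, with 0 called members. The numbers were not taken to pair the libraries, since not every pair of the same number deviated together. The 6 pairs among replicate 1 libraries all correlated positively (0.0201 to 0.604), and the pairs of replicates 2, 3 and 4 ran from -0.75 to 0.591. Depth limited mt-Atp8, at 0 to 2 counts a library, and mt-Nd4l, at 1 to 8.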

Other observations

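Genes around the respiratory chain were also without a call: edgeR called 0 genes of any of these lists in any of the 5 comparisons. Of all genes 0% to 0.0951% were called in a comparison, so this count does not set the lists apart. Ppargc1a, a coactivator of mitochondrial biogenesis, had 59.3 ± 3.45 CPM after and 74.0 ± 7.17 CPM before extinction in ABX libraries (SD, n = 4 each; log2 fold change -0.32, SE 0.08, edgeR adjusted p = 0.124). In the same comparison its partner receptor Esrrg had -0.30 (SE 0.08, edgeR adjusted p = 0.154), the proton carrier relative Ucp2 0.62 (SE 0.18, edgeR adjusted p = 0.154) and the citric acid cycle enzyme Idh2 0.36 (SE 0.11, edgeR adjusted p = 0.166). These genes were picked from the lists for small p. In that comparison 16.6% of all genes, and 4 of 14 regulators of biogenesis, had an unadjusted edgeR p under 0.05. The median of these regulators was -0.08, and it was 0.06 with the GC trend removed. The 2 mitochondrial rRNAs, which are read from the same chromosome as the 13 coding genes, had 0.41 (mt-Rnr2, SE 0.20, edgeR adjusted p = 0.321) and 0.35 (mt-Rnr1, SE 0.20, edgeR adjusted p = 0.365) for ABX before extinction.

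The median log2 fold change for ABX before extinction is given for each list with the number of its tested genes that were positive, beside 0.01 over all genes. It was -0.13 for glycolysis (3 of 16), -0.14 for the mitochondrial stress response (4 of 12), 0.11 for dynamics and turnover (10 of 14), 0.10 for RNA processing (10 of 16) and 0.10 for the assembly factors of complexes II, III and V (10 of 14). With the GC trend removed these medians were -0.02, 0.04, 0.03, 0.01 and 0.02, so that the stress response turned sign. The lists nearest to 0 were the large (0.01, 25 of 48) and small (0.00, 17 of 31) subunit of the mitochondrial ribosome, carriers and import (0.00, 10 of 20), electron carriers and coenzyme Q synthesis (0.00, 9 of 17) and regulators of biogenesis (0.01, 8 of 14). Mitochondrial DNA maintenance had 0.02 (7 of 14), the citric acid cycle 0.02 (10 of 18), antioxidant enzymes 0.04 (7 of 11) and complex I assembly factors outside the symbol rule 0.06 (6 of 8). Complex IV assembly factors had 8 of 18 positive, with a median within 0.01 of 0. Glycolysis had 14 of 16 genes positive after against before extinction in ABX libraries (median 0.14), where 79.5% of all genes above 50.5% GC were positive, and the median was -0.01 with the GC trend removed.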
